A study of Arabidopsis thaliana with 6 samples.

Results

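The 9 genes described here encode receptors of abscisic acid (ABA) in Arabidopsis thaliana, PYR1, PYL1, PYL2, PYL4, PYL5, PYL6, PYL7, PYL8 and PYL9. They were taken by locus from a table of RNA-seq counts for 28775 loci, and all 9 loci had a row. The counts come from inflorescence apices, with 3 mock libraries (CT1, CT2 and CT3) and 3 dexamethasone libraries (Dx4, Dx5 and Dx6). Plants were grown at 21 °C in cycles of 16 h of light and 8 h of dark, received dexamethasone or mock treatment 2 weeks after bolting, and had their apices taken 6 to 8 h later, stripped of every flower primordium that could be seen. Per the labels, dexamethasone, a synthetic glucocorticoid, allows expression of AP2m3, a version of APETALA2 (AP2), which is a transcription factor of flowers and meristems. The labels call the tissue inflorescence meristem and shoot apical meristem. The labels give neither the plant line nor the promoter of the transgene, and there was no dexamethasone treatment of plants without it, so effects of AP2m3 and of dexamethasone itself cannot be told apart. It is not stated whether the 3 libraries of a treatment derive from different plants, and p-values therefore reflect only how these libraries varied, possibly for technical reasons.

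PYR/PYL proteins are soluble receptors with a hormone-binding pocket. A receptor that has bound ABA docks onto a clade A protein phosphatase 2C (PP2C) and blocks it. This frees SnRK2 protein kinases, which phosphorylate transcription factors such as the ABFs and thereby switch on genes of stress tolerance, dormancy and growth arrest. The family falls into 3 subfamilies. PYR1, PYL1 and PYL2 form pairs without hormone and need ABA to act, whereas PYL4, PYL5 and PYL6, and likewise PYL7, PYL8 and PYL9, are mostly single molecules. In the annotation used here (RefSeq, assembly TAIR10.1) PYL7, PYL8 and PYL9 each have 3 coding exons, and each of the other listed receptors has 1.

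Total counts were 1633571 to 2196781 per library, so these are shallow libraries, in which 3 counts correspond to 1.37 to 1.84 CPM (counts scaled to a common library total). Pearson correlations of log2 CPM across genes were 0.974 to 0.975 among the dexamethasone libraries and 0.942 to 0.964 among the mock libraries, where CT3 lay nearest to the dexamethasone libraries on the first principal component. AP2 had 55.3 to 77.5 CPM in mock and 1001 to 1178 CPM with dexamethasone, with no overlap. The meristem genes STM, KNAT1 and CLV1 were present in all libraries and WUS at 3.31 to 6.21 CPM. The stem cell gene CLV3, a defining marker of the labelled tissue, had no count in any library, which allows up to 0.499 CPM over the mock group and 0.517 CPM over the dexamethasone group.

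Of the listed receptors 8 had enough counts to be tested, and PYL2 did not. With dexamethasone 1 of the 8, PYL7, fell, none rose, and 7 did not pass the test. Among all 15857 genes tested 8.02% were lower and 5.86% higher (edgeR quasi-likelihood test, adjusted p under 0.05), 13.9% in either direction, so 1 fall among 8 is near the share of all genes. The log2 fold change was below 0 for 5 of the 8, and for 49.5% of all genes tested. Their median log2 fold change was -0.32, beside 0.00 over all genes tested. The CPM of the groups did not overlap for 4 of the 8 receptors, PYR1, PYL7, PYL8 and PYL9, each lower with dexamethasone, and for 31% of all genes tested. In bulk tissue, fewer cells that express a gene and less RNA per cell cannot be told apart.

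**Figure D1:**
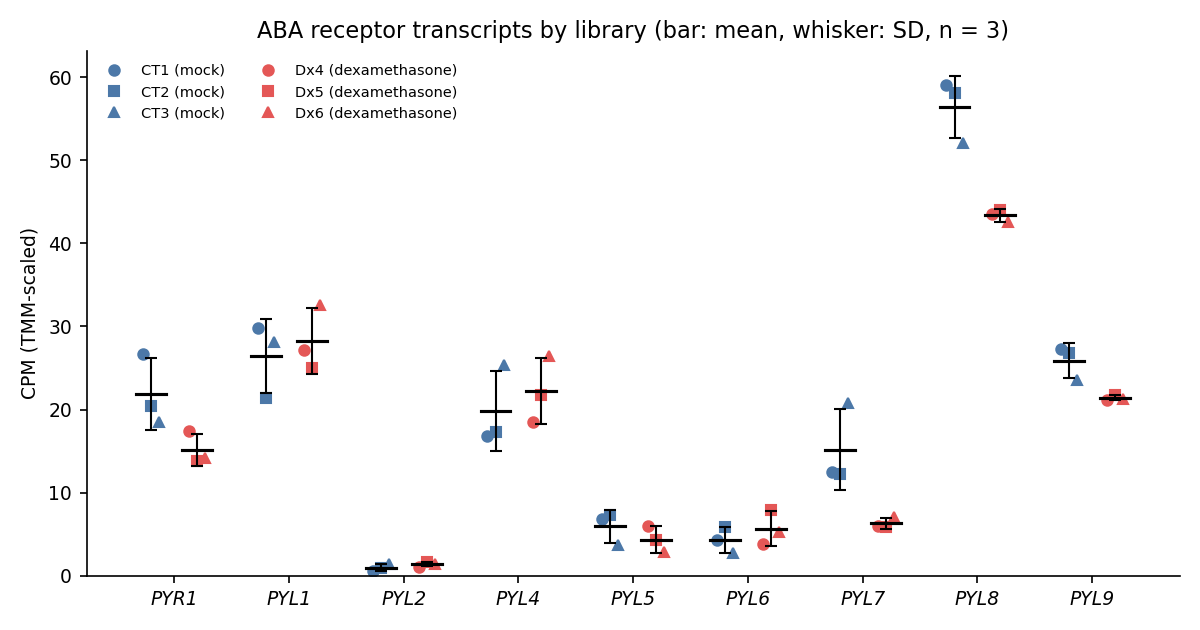
Level of each receptor in CPM in the 3 mock libraries (blue) and the 3 dexamethasone libraries (red), with the mean and SD of each group. PYL7 sits at 12.3 to 20.8 CPM in mock and 5.84 to 7.09 CPM with dexamethasone, while PYL8 stays the highest of the 9 in both groups.

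PYL7 (AT4G01026), a receptor of the PYL7, PYL8 and PYL9 subfamily, had 20, 27 and 45 counts in CT1, CT2 and CT3 and 11, 11 and 15 in Dx4, Dx5 and Dx6. On the CPM scale these were 12.4, 12.3 and 20.8 in mock and 5.98, 5.84 and 7.09 with dexamethasone. The groups did not overlap, the dexamethasone libraries lay close together, and CT3 was the high library of the mock group. The mean fell from 15.2 ± 4.86 to 6.30 ± 0.69 CPM (SD, n = 3 each), lower in 3 of 3 dexamethasone libraries, with a log2 fold change of -1.27 ± 0.30 (SE; 95% interval -1.90 to -0.63; edgeR adjusted p = 0.00755). The call was kept when any library was left out, with edgeR adjusted p of 0.00551 to 0.0445, and the log2 fold change was -0.96 without CT3. It was not kept against a minimum fold of 1.5 (edgeR adjusted p = 0.155).

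The row of PYL7 carries a limit of counting. Its exons overlap those of AT4G01030, a gene on the opposite strand, and 47.8% of the 50-base words of its exon sequence also lie in other exons. The library kit keeps strand information, but the strand setting of the counting is not given, so reads of the overlap may be missing or misplaced. AT4G01030 itself had 4, 11 and 10 counts in mock and 8, 6 and 7 with dexamethasone, fewer than PYL7 in every library. The summed CPM of both genes was 14.9, 17.3 and 25.4 in mock and 10.3, 9.02 and 10.4 with dexamethasone, and these groups did not overlap either. PYL7 supplied most of the sum in mock (20 of 24, 27 of 38 and 45 of 55 counts). Reads left out of both rows would not be in the sum, so it cannot settle this limit. None of the other 8 receptors shared exon sequence with another gene.

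PYL8 (AT5G53160), known in Arabidopsis for its part in root responses to ABA, had the highest count of the 9 receptors in every library. It stood at 59.0, 58.2 and 52.1 CPM in mock and 43.5, 44.1 and 42.5 CPM with dexamethasone. All mock libraries lay above all dexamethasone libraries, and CT3 was the lowest of the mock group. The log2 fold change was -0.38 ± 0.14 (SE; 95% interval -0.67 to -0.08), with edgeR adjusted p = 0.0815, which missed the threshold of 0.05. PYL9 (AT1G01360), its close relative, had 27.3, 26.8 and 23.5 CPM in mock and 21.2, 21.8 and 21.3 CPM with dexamethasone. These groups also did not overlap, though CT3 came within a few CPM of the dexamethasone libraries. Its log2 fold change of -0.27 ± 0.18 (95% interval -0.65 to 0.11) had edgeR adjusted p = 0.374.

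The change of PYL7 was compared with those of PYL8 and PYL9 as a ratio within each library, a comparison chosen after their values were seen. There was 0.211, 0.211 and 0.398 count of PYL7 per count of PYL8 in the mock libraries, against 0.138, 0.133 and 0.167 with dexamethasone. Per count of PYL9 the values were 0.455, 0.458 and 0.882 in mock and 0.282, 0.268 and 0.333 with dexamethasone. Neither ratio overlapped between the groups, and the mean log2 ratios differed by -0.85 and -0.95 (dexamethasone minus mock). The exact permutation test (two-sided, 3 against 3) gave p = 0.1 for each of the 2 ratios, also after adjustment, which is the smallest value that this design allows.

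PYR1 (AT4G17870), the founding member of the family, identified through the synthetic ABA mimic pyrabactin, had 26.7, 20.4 and 18.5 CPM in mock and 17.4, 13.8 and 14.2 CPM with dexamethasone. The groups did not overlap, but CT3 and Dx4 were about 1 CPM apart. The log2 fold change was -0.51 ± 0.22 (95% interval -0.98 to -0.05), with edgeR adjusted p = 0.138. Without CT3 both PYR1 and PYL8 passed the threshold, with log2 fold changes of -0.62 and -0.43 and edgeR adjusted p of 0.0489 and 0.0231, and 3 receptors were then called lower. With any other library left out neither passed. PYR1, PYL7 and PYL8 were the 3 receptors with an unadjusted p under 0.05.

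PYL1, PYL4, PYL5 and PYL6 did not pass the test, and their groups overlapped. PYL1 (AT5G46790), the nearest relative of PYR1, had 29.8, 21.4 and 28.1 CPM in mock and 27.2, 24.9 and 32.6 CPM with dexamethasone. Its log2 fold change of 0.11 had a 95% interval of -0.28 to 0.50, which leaves room for a change of moderate size either way. PYL4 (AT2G38310), one of the receptors linked in Arabidopsis to jasmonate as well as ABA, had 16.8, 17.3 and 25.4 CPM in mock and 18.5, 21.8 and 26.5 CPM with dexamethasone. Its log2 fold change was 0.16, with an interval of -0.29 to 0.62.

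PYL5 (AT5G05440) and PYL6 (AT2G40330), the relatives of PYL4, had 6 to 16 counts per library. PYL5 stood at 2.84 to 7.27 CPM over the 6 libraries and PYL6 at 2.77 to 7.96 CPM, with overlap of the groups in both. Their log2 fold changes of -0.45 (interval -1.32 to 0.42) and 0.37 (interval -0.50 to 1.25) have intervals wide enough to take in a 2-fold change, so that moderate changes were not detectable at this depth. PYL2 (AT2G26040) had 1, 2 and 3 counts in mock and 2, 3 and 3 with dexamethasone, at or under the limit of 3 counts in every library. Over PYL1, PYL4, PYL5 and PYL6, edgeR adjusted p was 0.547 to 0.761.

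**Figure D2:**
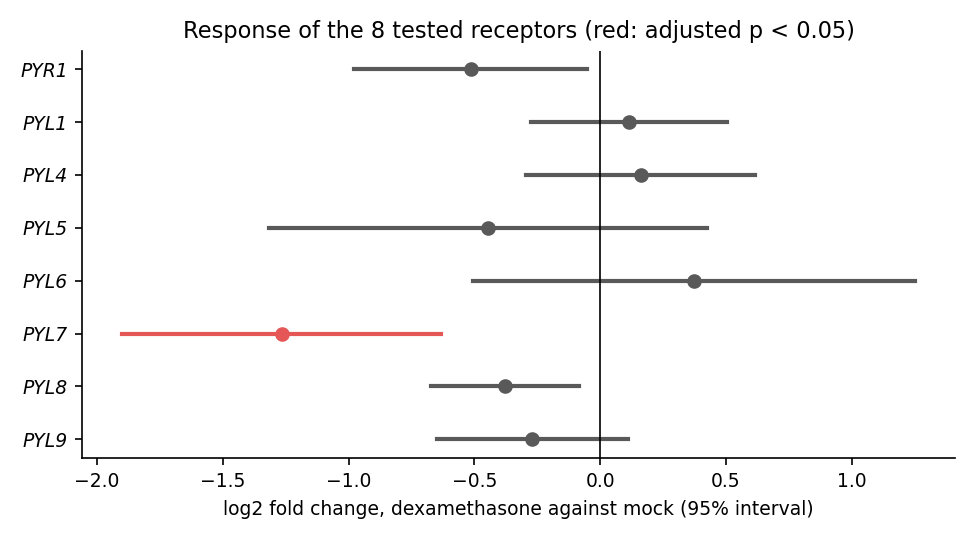
Log2 fold change of dexamethasone against mock with its 95% interval for the 8 receptors tested, with the called receptor in red. The interval of PYL7, -1.90 to -0.63, lies wholly below 0, as do those of PYR1 and PYL8, whose adjusted p missed the threshold.

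The remaining 5 annotated loci of the family were at or near 0. PYL3, PYL12 and PYL13 had no count in any library, which sets the same limits as for CLV3. PYL10 had 1 count, in Dx5. PYL11 had 1 to 7 counts per library (0.62 to 3.80 CPM) with overlap of the groups, and was not tested.

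Levels of different receptors were compared per length, as CPM per kb of annotated exon. In mock PYL8 was first with a mean of 30.9 CPM per kb, and its lowest library (28.5) lay above the highest of PYL9 (23.2). PYL9, PYL1, PYR1, PYL4 and PYL7 followed at 22.0, 19.1, 17.0, 13.8 and 12.2 CPM per kb, each overlapping its neighbour in the order. PYL5 and PYL6, at 3.85 and 2.7 CPM per kb, overlapped each other and lay below PYL7, and PYL2 was last at 0.756 CPM per kb. Of 22231 loci with any count, 80.2% had a lower mock level per kb than PYL8, 54.4% a lower level than PYL7 and 16.8% a lower level than PYL2. The level of PYL7 was divided by its whole exon length. Reads missing or misplaced in the overlap with AT4G01030 would therefore shift its level, its place in both orders and its share.

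With dexamethasone the order was PYL8, PYL1, PYL9, PYL4, PYR1, PYL7, PYL6, PYL5 and PYL2. Mean levels per kb ran from 23.7 for PYL8 over 20.4, 18.2, 15.5 and 11.7 for the next 4 to 5.08 for PYL7, 3.52 for PYL6, 2.83 for PYL5 and 1.06 for PYL2. PYL8 then overlapped PYL1. PYL7, which in mock overlapped PYL4, lay below PYR1 without overlap and overlapped PYL6.

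Summed over the 9 receptors, the level was 127, 117 and 123 CPM per kb in CT1, CT2 and CT3 and 99.7, 100.1 and 106.2 in Dx4, Dx5 and Dx6. The groups did not overlap, and the mean went from 122 ± 5.14 to 102 ± 3.64 CPM per kb (SD, n = 3 each), 0.834 of the mock level. PYL7, PYL8 and PYL9 together made up 51.5% to 55.2% of this sum in mock and 44.3% to 47.2% with dexamethasone. The share of PYL4, PYL5 and PYL6 was 14.8% to 17.7% in mock and 19.2% to 22.8% with dexamethasone, and that of PYR1, PYL1 and PYL2 overlapped, at 27.4% to 33.7% and 29.9% to 34.1%. PYL7 alone, with the limit of counting given above, went from 7.89%, 8.47% and 13.6% of the sum to 4.84%, 4.71% and 5.39%. These sums and shares are descriptions, with no test, since the members were chosen with results known.

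**Figure D3:**
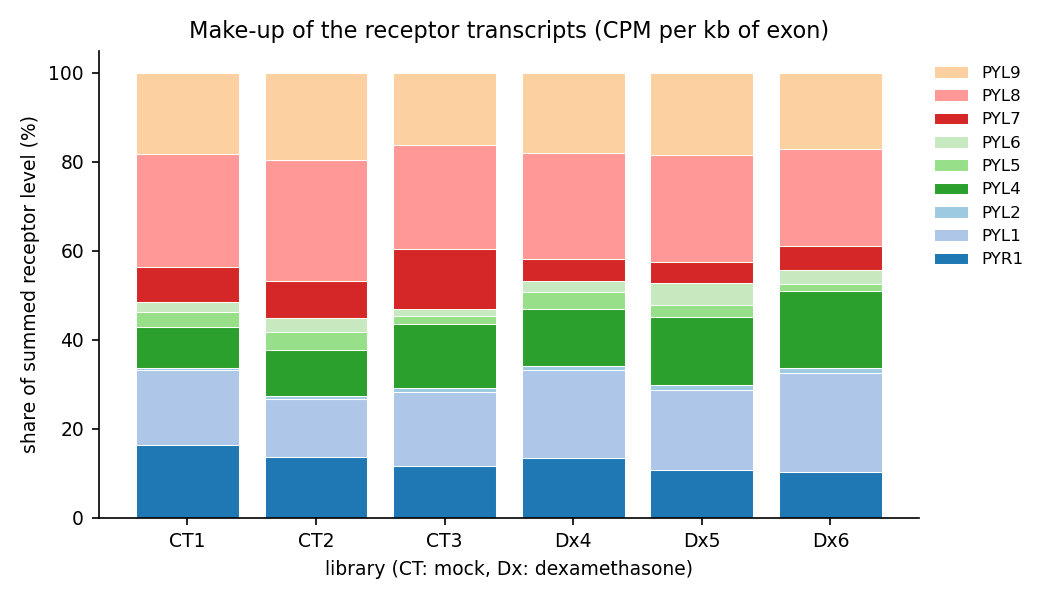
Share of each receptor in the summed receptor level (CPM per kb of exon, in percent) in each of the 6 libraries. The segment of PYL7 is 7.89% to 13.6% in the mock libraries and 4.71% to 5.39% in the dexamethasone libraries.

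Receptor levels were set beside 8 genes of the plant clock that peak around dawn, because these differed among the mock libraries. Their summed level was 163, 120 and 72.9 CPM in CT1, CT2 and CT3 and 61.4, 53.1 and 41.1 CPM in Dx4, Dx5 and Dx6. These sums also did not overlap between the treatments, and LNK1, 1 of the 3 clock genes tested, fell (log2 fold change -1.21, edgeR adjusted p = 0.000907). In any fit with these genes as a covariate, the covariate and the treatment therefore cannot be fully told apart. LNK1 and LNK2 supplied most of the summed level (62.8 CPM each in CT1), and 5 of the 8 genes were too low to test. In the covariate, a mean of log2 CPM, these low genes weigh as much as the others, so it is a different measure from the sum. Within the mock group PYR1 and PYL8 were lowest in CT3, where the clock genes were lowest, whereas PYL7 and PYL4 were highest there. With the mean log2 CPM of these clock genes as a covariate, PYL7 had a log2 fold change of -1.74 (edgeR adjusted p = 0.000587). In that fit PYR1 went from -0.51 to -0.18 and PYL8 from -0.38 to -0.26 on the log2 scale, with edgeR adjusted p of 0.774 and 0.406.

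**Figure D4:**
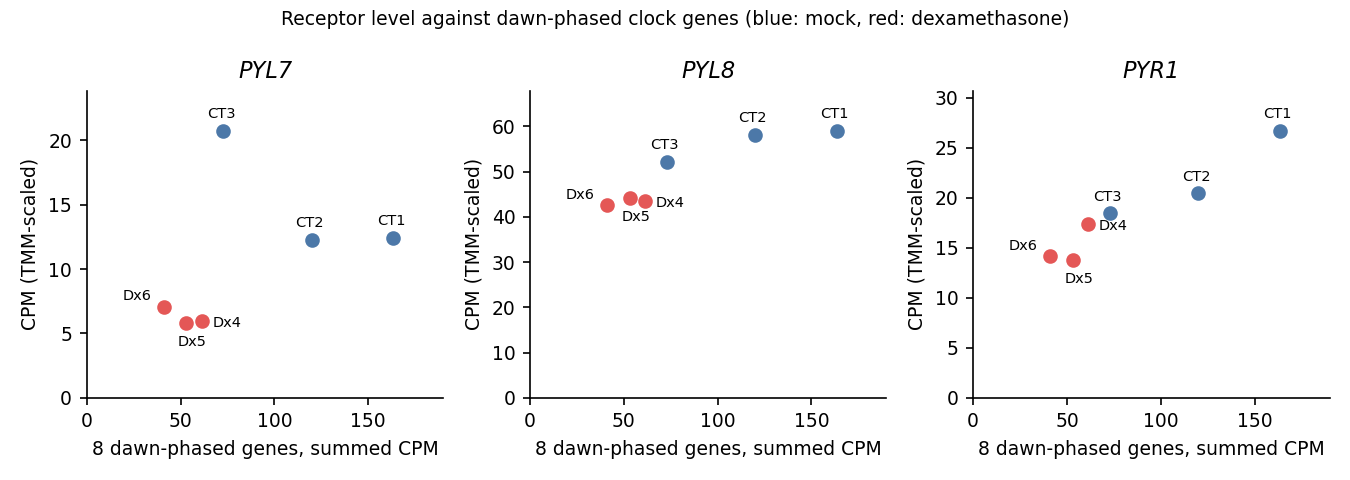
CPM of PYL7, PYL8 and PYR1 against the summed CPM of 8 dawn-phased clock genes, with 1 point per library (blue for mock, red for dexamethasone). CT3, at 72.9 CPM of clock genes, is the highest library for PYL7 and the lowest mock library for PYL8 and PYR1.

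Markers of cell types were read beside the receptors. The 5 shoot meristem genes summed to 194 to 225 CPM in mock and 256 to 274 CPM with dexamethasone, without overlap, and 1 of the 3 tested, CLV1, rose (log2 fold change 0.72, edgeR adjusted p = 0.00179). Of 4 phloem genes 3 were lower with dexamethasone (SUC2, SWEET11 and SWEET12), with a summed level over the 4 of 74.0 to 82.2 CPM in mock and 40.9 to 47.3 CPM with dexamethasone. The other, APL, was not called, and its groups overlapped (log2 fold change 0.29, edgeR adjusted p = 0.654). Of 4 leaf photosynthesis genes 3 were lower, with sums of 6912 to 8644 and 3997 to 4267 CPM. Over all genes tested 8.02% were lower and 5.86% higher, and the groups did not overlap for 31%, taken gene by gene. None of the 5 flower organ genes was called (479 to 595 and 519 to 539 CPM), nor was either of the 2 tested of 5 guard cell genes (22.3 to 32.8 and 26.5 to 33.7 CPM). Flower organ genes were present in every library, although visible flower primordia had been removed. Mock means were 126 CPM per kb for AP3, 135 for PI, 91.6 for CRC, 36.5 for AG and 9.18 for SPL, beside 38.0 for STM. The receptor levels are thus not those of tissue free of flower organ expression. The part of meristem, flower, phloem and leaf tissue in the fall of PYL7 was not tested.

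The rest of the pathway was read from lists ordered by role. Of 77 genes in 10 lists of ABA perception, synthesis and response, the 5 further PYR/PYL loci included, 51 were tested and 21 were lower and none higher, 41.2% lower beside 8.02% of all genes tested. The median log2 fold change was -0.46. The counts of each list below stand beside the same shares over all genes tested, 8.02% lower and 5.86% higher. Against a minimum fold of 1.5, 10 were lower. The lists were drawn up with earlier results of these data known and are no independent evidence of a direction.

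Of the clade A PP2Cs, the phosphatases that the receptors block, 3 of 7 tested fell and none rose, and 2 more (AHG1 and HAI3) were too low to test. PP2CA fell from 113 ± 11.7 to 71.3 ± 8.72 CPM, a log2 fold change of -0.65 ± 0.14. ABI2 had 23.0, 25.4 and 23.5 CPM in mock and 14.7, 12.7 and 11.8 CPM with dexamethasone, and ABI1 had 75.2, 78.6 and 72.4 against 51.6, 59.4 and 53.4 CPM. Neither gene's groups overlapped. edgeR adjusted p was 0.00308 for PP2CA, 0.00707 for ABI2 and 0.0256 for ABI1. The call of ABI2 was lost without Dx6 (0.0538) and that of ABI1 without CT2, Dx4, Dx5 or Dx6 (edgeR adjusted p of 0.103, 0.123, 0.0623 and 0.121), with the DESeq2 Wald test (0.107) and with the clock covariate (0.101). Against a minimum fold of 1.5 none of the 3 phosphatases was called. Of the 7 tested 6 had a log2 fold change below 0, and HAI2 went the other way. Its log2 fold change was 0.59 without overlap of the groups (edgeR adjusted p = 0.11), and it was called higher without CT3 (edgeR adjusted p = 0.0172).

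The summed level of the 9 PP2Cs was 206, 186 and 185 CPM per kb in mock and 139, 145 and 157 with dexamethasone, with no overlap. The ratio of summed receptors to summed PP2Cs per kb was 0.617, 0.629 and 0.664 in mock and 0.717, 0.691 and 0.678 with dexamethasone. It was thus slightly higher in each dexamethasone library than in any mock library, while both sums were lower.

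Of the 3 SnRK2 kinases activated by ABA, SNRK2.3 fell from 122 ± 16.8 to 67.3 ± 4.02 CPM, a log2 fold change of -0.86 ± 0.14 (edgeR adjusted p = 0.000282, called without each library in turn). It was not called against a minimum fold of 1.5 (edgeR adjusted p = 0.23). SNRK2.2 and SNRK2.6 (OST1, the kinase of stomatal closure) were not called, at log2 fold changes of -0.24 and 0.08. Of the other SnRK2 kinases none of 4 tested was called. SNRK2.1 and SNRK2.4, the highest of them, had log2 fold changes of 0.32 and -0.26, and both passed the threshold without CT3 (edgeR adjusted p of 0.0126 and 0.0136). Another 3 were too low to test. Of these SNRK2.8 had 5, 10 and 9 counts in mock and 1, 1 and 3 with dexamethasone, without overlap. It was called lower without a filter beyond 1 count (log2 fold change -2.14, edgeR adjusted p = 0.0239).

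Of the transcription factors at the end of the pathway 4 of 5 tested fell and none rose. ABF3 and ABF1 had log2 fold changes of -1.90 ± 0.28 and -1.09 ± 0.19, and ABI5, a factor known from seed germination, went from 43.4 ± 9.30 to 23.0 ± 3.50 CPM. ABF4 fell by 0.52 on the log2 scale (edgeR adjusted p = 0.0389; 27.2% of its exon words lie in other exons). That call was lost without each library except CT3 (edgeR adjusted p of 0.105 to 0.133) and with the DESeq2 Wald test (0.164). ABF1, ABF4 and ABI5 also lost their calls with the clock covariate (edgeR adjusted p of 0.0562, 0.479 and 0.110). Against a minimum fold of 1.5 ABF3 was the 1 factor called, and ABF1 and ABI5 had edgeR adjusted p of 0.0772 and 0.355. With the clock covariate ABF3 kept its call with a log2 fold change of -1.12. ABI3 and ABI4 had no count.

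Of 6 tested genes of ABA synthesis 2 fell and none rose. NCED3, which makes the first dedicated step, had 24.9, 10.5 and 10.6 CPM in mock and 2.17, 2.65 and 3.31 CPM with dexamethasone, and ABA1, a xanthophyll epoxidase, had a log2 fold change of -1.25 ± 0.16. With the clock covariate NCED3 had a log2 fold change of -1.60. Of 2 tested genes of ABA breakdown CYP707A4 fell, from 16.8, 7.27 and 10.6 to 2.17, 0.53 and 2.84 CPM, with 1 count in Dx5. The ABA importer NPF4.6 fell by 1.12 on the log2 scale, as 1 of 4 tested genes of transport and release (edgeR adjusted p = 0.0374). Its call was lost without CT1, CT2, Dx4 or Dx6 (edgeR adjusted p of 0.0506, 0.133, 0.0891 and 0.221), with a log2 fold change of -0.74 without Dx6, and with the DESeq2 Wald test (0.115), the clock covariate (0.144) and a minimum fold of 1.5 (0.474).

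None of 9 tested genes for receptor turnover and membrane recruitment was called, and their median log2 fold change was 0.02. The 2 highest, DDB1A and DET1, subunits of a ubiquitin ligase adaptor complex, had log2 fold changes of -0.15 and 0.01. DDB1A passed the threshold with the clock covariate (-0.42, edgeR adjusted p = 0.0472).

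Among genes known to be induced by ABA, cold or drought 9 of 11 tested fell and none rose, with a median log2 fold change of -1.04. Over all genes tested 8.02% were lower and 5.86% higher. COR15A, a chloroplast protein of cold tolerance, had 485, 579 and 433 CPM in mock and 147, 115 and 105 CPM with dexamethasone. COR6.6 fell by 1.19 and RD22 by 1.04 on the log2 scale. RD29A, LTI30 and the linker histone gene HIS1-3 had log2 fold changes of -3.43 ± 0.40, -3.72 ± 0.52 and -3.83 ± 0.36. LTI30 had 27, 28 and 16 counts in mock and 1, 1 and 3 with dexamethasone, at or under the limit of 3 counts in every dexamethasone library. HIS1-3 had 47, 51 and 67 counts in mock and 1, 7 and 3 with dexamethasone. The sizes of both falls therefore rest on few counts. With a library left out, the log2 fold change was -4.33 (without Dx6) to -3.47 for LTI30 and -4.69 (without Dx5) to -3.44 for HIS1-3. For RD29A it was -3.69 to -3.07. With the clock covariate RD29A, LTI30 and HIS1-3 had -2.55, -2.97 and -3.91. These 6 genes had edgeR adjusted p of 0.00322 or less, and each was called without each library in turn. Of the 15 listed genes 4 were too low to test. RD29B and EM6 had no count, and EM1 had 1 count, in CT2. RAB18 had 1, 7 and 32 counts in mock and 1, 5 and 1 with dexamethasone, with overlap of the groups. Without a filter beyond 1 count RAB18 was called lower (edgeR adjusted p = 0.00108), with most of its counts in CT3.

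**Figure D5:**
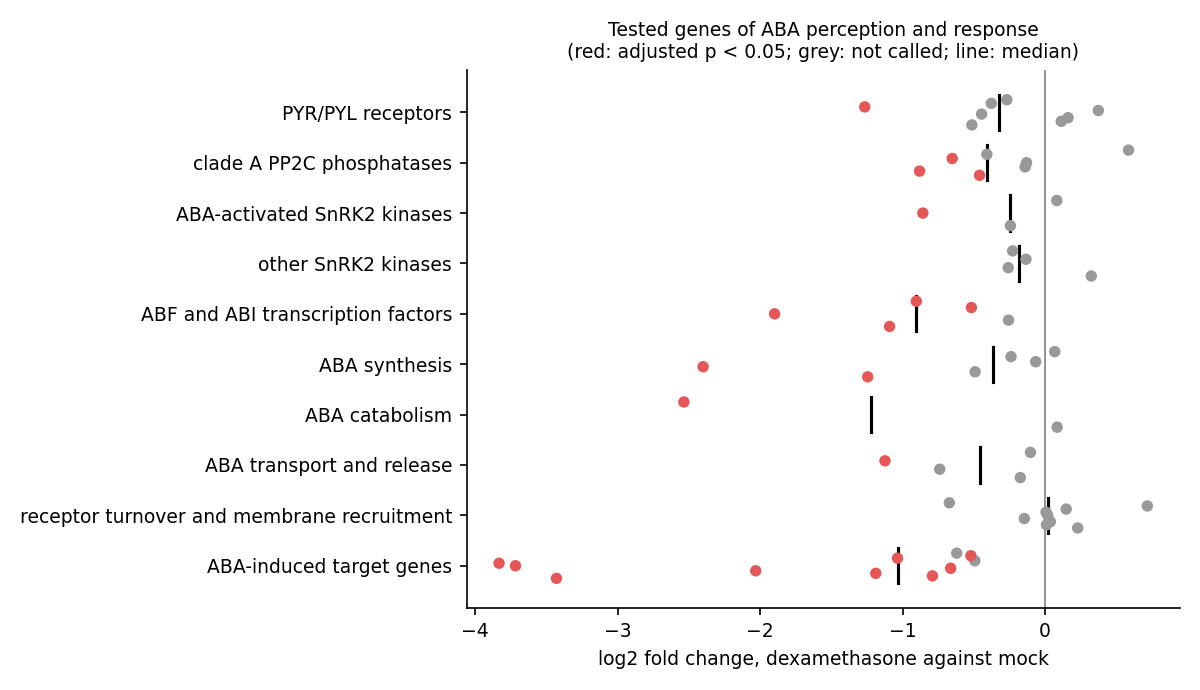
Log2 fold change of dexamethasone against mock for the tested receptors and the tested genes of 9 lists of ABA perception, synthesis and response, with called genes in red and a line at each list's median. The receptors have a median of -0.32, the ABF and ABI factors -0.90 and the ABA-induced genes -1.04.

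The genes whose log2 CPM followed that of PYL7 most closely over the 6 libraries, among 11030 with a mean of at least 20 CPM, were AT1G19835, RGL2, which encodes a DELLA repressor of gibberellin responses, and ATPC1, a subunit of the chloroplast ATP synthase. Pearson's r was 0.996, 0.996 and 0.995, given as a description, since the libraries form 2 groups and the genes were picked for their likeness. RGL2 had 60.9, 56.8 and 77.5 CPM in mock and 39.7, 39.3 and 44.9 CPM with dexamethasone, so that it shared with PYL7 both the high value in CT3 and the narrow spread of the dexamethasone libraries. That narrow spread is not particular to these genes, since the dexamethasone libraries were also more alike than the mock libraries across all genes.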

How the data were processed

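The authors deposited unnormalized read counts for each locus, made with HTSeq going by the table's name. The submitters' processing notes also list Bowtie, Cufflinks, RSEM and TopHat but give them no role. Per the labels' protocols the library kit was stranded and selected mRNA. Genome build, annotation, strand setting and read filters: not given in the sources used here. There were 28775 loci, and 3 lines without values were dropped. Columns headed CT were taken as mock and those headed Dx as dexamethasone, with no column tied to a particular sample.

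The test was that of edgeR 4.0.16, run in R 4.3.3 (TMM scaling, filterByExpr with a minimum count of 10, robust quasi-likelihood test, two-sided). Benjamini-Hochberg adjustment covered 15857 genes, and the threshold was 0.05. SE was taken as log2 fold change over root F, and 95% intervals use the t distribution. CPM were computed from all deposited counts of a library and its TMM factor. Names and exon lengths came from RefSeq (TAIR10.1), which had 28009 of the loci. Floors of 3 counts cover counting error only.

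The members and lists were chosen with earlier results of these data known. Named are all 9 receptors, AP2, the 5 further family loci, up to 6 called members of each list by p, or the 2 highest of a list with none, and the 3 genes most like the receptor of smallest p. Other genes named complete a small count and were chosen after their values were seen. The procedure was tested on simulated counts, with changes placed in genes above a minimum level. Of 1.5-fold changes 26.9% were called, of 2-fold changes 80.6% and of 4-fold changes 98.5%, and 3.52% of calls were false. Most 1.5-fold changes would thus be missed at this depth. The alternatives were DESeq2 1.42.0 size factors and Wald test, library size scaling, 2 other filters, limma-voom (limma 3.58.1), a minimum fold of 1.5, a threshold of 0.1, a clock-gene covariate and leaving out each library. The covariate was first proposed after these data had been seen.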

Additional observations from a re-analysis of the deposited data

How the results depend on the processing

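The fall of PYL7 kept its direction and its call under DESeq2 size factors, library size scaling, both other filters, the DESeq2 Wald test, limma-voom, the clock covariate and each left-out library, and lost the call against a minimum fold of 1.5, which left 0 receptors lower. At a threshold of 0.1 there were 2 receptors lower, PYL7 and PYL8, and leaving out 1 library gave 1 to 3. Of the pathway genes 10 were lower against a minimum fold of 1.5 and 15 to 26 with a library left out. None was higher in the reported fit, 1 was at a threshold of 0.1, 1 without a filter beyond 1 count (HAI2), and 0 to 3 with a library left out. Of the 18 named pathway genes called, 14 kept the call without each library. Over all genes 549 were higher and 815 lower by the DESeq2 Wald test, 111 and 177 against a minimum fold of 1.5, and 441 to 1816 and 668 to 1974 with a library left out, the most without CT3. Some values without a call changed sign. With the clock covariate PYL4 went from 0.16 to -0.26, PYL5 from -0.45 to 0.22, SNRK2.4 from -0.26 to 0.13 and DET1 from 0.01 to -0.074. With a library left out PYL1 had -0.029 to 0.194 and DET1 -0.063 to 0.092. The cause was not tested. Levels and sums moved by less than 1 SD under library size scaling. Shares are ratios within a library, so this scaling cannot change them. No paired analysis was possible because the numbers of the dexamethasone columns match no title. At this depth PYL2, PYL5 and PYL6 are too low to resolve moderate changes.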
